A study of Homo sapiens with 6 samples.

Results

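The genes described here are 47 human genes of the actin cytoskeleton, of serum response factor (SRF) with its coactivators, and of the YAP, TAZ and TEAD pathway with its target genes. They were taken by gene symbol from the 26931 symbols of the deposited tables, and each of the 47 was found there. The cells were TC32, an established Ewing sarcoma line, transfected with an siRNA against EWSR1 (siEWSR1), an siRNA against FLI1 (siFLI1) or a control siRNA (siNeg). RNA was taken at 48 h, with 2 libraries in each group and 6 in all. Most Ewing sarcomas carry a fusion, EWS-FLI1, that joins these genes and encodes a transcription factor, and both siRNAs were used to target it. All groups are the same single line and all were transfected, and the sources used here do not say where in its gene each siRNA binds.

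Actin filaments are built from soluble actin, held together by cross-linkers, tied to the membrane at adhesion sites and pulled by myosin II. Soluble actin also binds the coactivators MKL1 and MKL2 (the MRTF proteins), and when it is used up for filaments they join SRF at a DNA element called the CArG box and switch on genes for actins, calponins and adhesion proteins. YAP1 and its relative TAZ, the product of WWTR1, are coactivators that the Hippo kinases keep out of the nucleus and that cell tension lets in, where they work with the TEAD factors on genes such as CTGF, CYR61 and ANKRD1. In Ewing sarcoma cells the fusion is known to hold many cytoskeletal and adhesion genes low.

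Levels are FPKM, which the authors scaled to transcript length and to the size of the library, so levels of different genes can be set side by side. FPKM alone does not put libraries on 1 scale, since the summed FPKM of a library ran from 502084 to 678574, and results that turn on another scaling are named as such. Changes were tested with limma on log2(FPKM + 0.5), and a gene was called when its p, adjusted over the 13043 genes with at least 1 FPKM in at least 2 libraries, was under 0.05. A log2 change of 1 is a doubling on that scale, and changes given as folds are on it too. It understates the change of genes with low levels. Among the 47 genes 46 were tested. The exception was MYL9, a myosin light chain of smooth muscle, which was listed at 0.031 and 0.0081 FPKM with siEWSR1, 0.034 and 0.028 with siFLI1, and at 0 in both siNeg libraries.

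With siEWSR1, 23 of the 46 genes were called higher than with siNeg, 7 lower and 16 neither way. Over all tested genes, 33.2% were called higher and 31.0% lower in that comparison. With siFLI1, 30 of the 46 were called higher, 7 lower and 9 neither way, where 35.7% of all tested genes were called higher and 29.6% lower. Expressed as shares of the 46, 50% were higher and 15.2% lower with siEWSR1, and 65.2% higher and 15.2% lower with siFLI1. That gap depends on the scaling, since with quantile normalization 31 genes were called higher with siEWSR1 and 32 with siFLI1. The median log2 change of the 46 was 0.23 with siEWSR1 and 0.32 with siFLI1, against 0.01 and 0.04 over all tested genes. Changes of at least 2-fold were fewer, with 4 genes higher and 0 lower with siEWSR1 (7.91% and 4.59% of all tested genes) and 9 higher and 0 lower with siFLI1 (9.32% and 4.59%).

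Both siRNAs were compared with the same siNeg libraries, so these comparisons are not independent of each other. Across all tested genes, siEWSR1 and siFLI1 libraries correlated at 0.972 to 0.976. The correlation with siNeg was 0.895 to 0.913 for siEWSR1 and 0.894 to 0.899 for siFLI1. How many of all tested genes were called alike with both siRNAs was not counted, so the counts that follow have no such share beside them. Side by side, 23 genes were called higher with each siRNA and 6 lower with each. The 6 were PXN, ILK, TAGLN2, MYH10, TEAD4 and ANKRD1. WWTR1 was called lower with siEWSR1 and PDLIM5 lower with siFLI1, and 7 genes (ACTN4, FLNA, TPM4, CALD1, MYL6, MYH9 and AMOTL2) were called higher with siFLI1 and not called with siEWSR1. That class depends on the scaling, since with quantile normalization 6 of the 7, all but AMOTL2, were called higher with siEWSR1 too. None was called in opposite directions, except with quantile normalization AMOTL2, which was then lower with siEWSR1 (-0.25, adjusted p = 0.0383) and higher with siFLI1. With the scaling as deposited, 8 were called with neither siRNA, among them the YAP target CTGF. The libraries of the compared groups did not overlap for 32 genes that were higher and 10 that were lower with siEWSR1, where 42.6% and 40.7% of all tested genes did not overlap in those directions. With siFLI1 these counts were 34 and 7, against 45.6% and 39.1% of all tested genes.

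**Figure D1:**
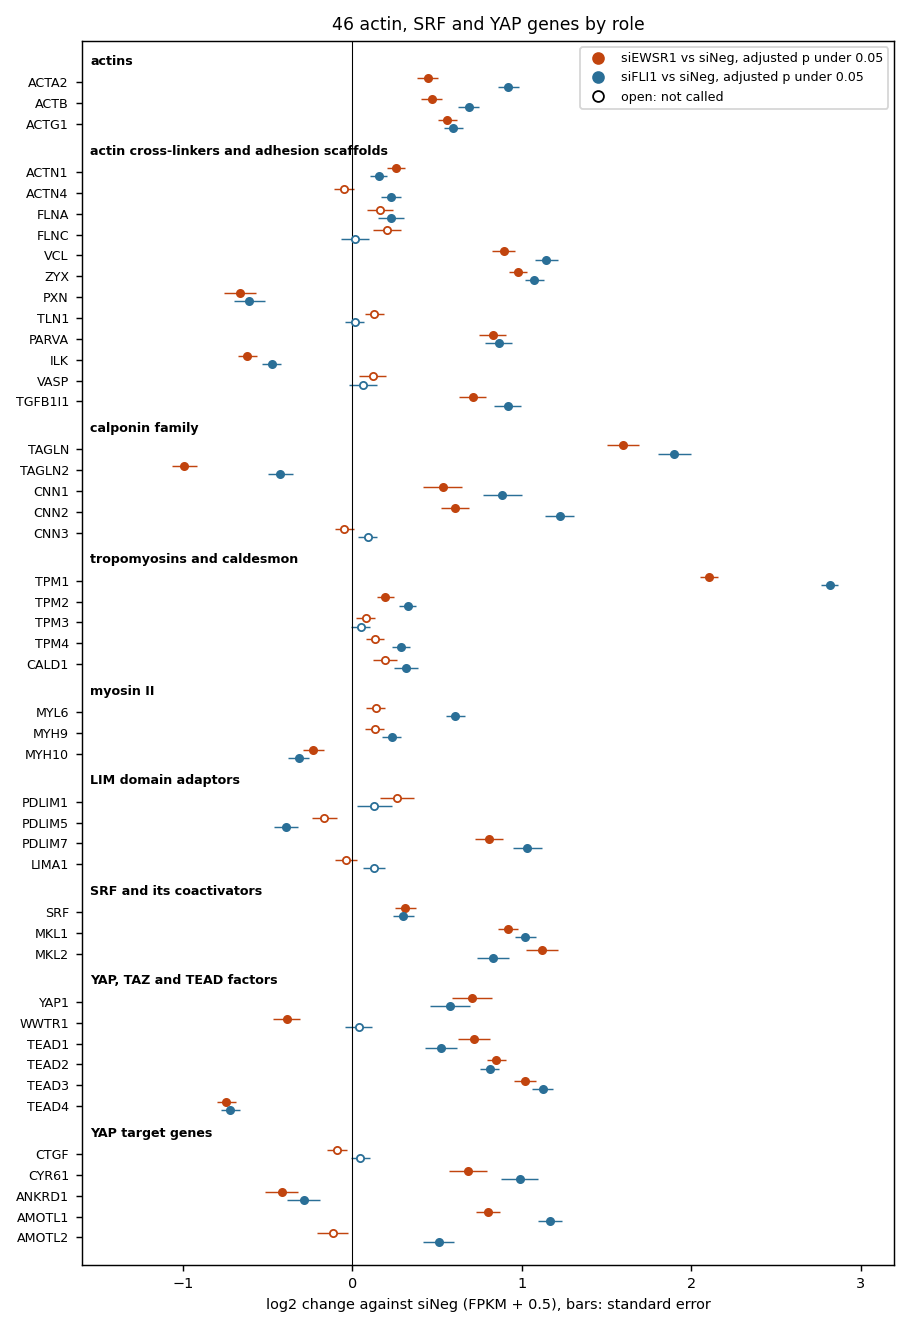
Log2 change of each of the 46 tested genes with siEWSR1 (red) and siFLI1 (blue) against siNeg, on log2(FPKM + 0.5), grouped by role, with bars for the standard error and filled points for genes called at an adjusted p under 0.05. TPM1 lies farthest to the right at 2.10 and 2.82, and TAGLN2 farthest to the left for siEWSR1 at -0.99.

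SRF, the DNA-binding factor of the actin programme (hg19, chromosome 6, 43139033 to 43149244), had 11.4 and 11.5 FPKM with siEWSR1, 11.0 and 11.8 with siFLI1, and 9.32 and 9.01 with siNeg. All 4 knockdown libraries lay above both siNeg libraries, by a small margin. The log2 change was 0.31 ± 0.06 with siEWSR1 (SE, limma adjusted p = 0.00464) and 0.30 ± 0.06 with siFLI1 (adjusted p = 0.00531).

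Its coactivators moved further. MKL1 (chromosome 22, 40806285 to 41032723) stood at 7.30 and 7.23 FPKM with siEWSR1, 7.72 and 7.96 with siFLI1, and 3.62 and 3.60 with siNeg. MKL2 (chromosome 16, 14165170 to 14360636) stood at 7.52 and 8.48 FPKM with siEWSR1, 6.08 and 6.84 with siFLI1, and 3.61 and 3.21 with siNeg. For each coactivator the libraries of either siRNA lay well above the siNeg libraries. MKL1 rose 1.89-fold with siEWSR1 (log2 change 0.92 ± 0.06, adjusted p = 4.92e-05) and 2.03-fold with siFLI1 (1.02 ± 0.06, adjusted p = 2.65e-05). MKL2 rose 2.17-fold with siEWSR1 (1.12 ± 0.10, adjusted p = 0.000134) and 1.78-fold with siFLI1 (0.83 ± 0.10, adjusted p = 0.000418). The share of MKL2 in the sum of both was 50.8% and 54.0% with siEWSR1, 44.1% and 46.2% with siFLI1, and 50.0% and 47.2% with siNeg, so its siEWSR1 libraries had the largest shares and its siFLI1 libraries the smallest. MKL1 overlaps SGSM3, at 18.2 to 20.9 FPKM in the 6 libraries, and without a stated strand setting reads of the shared stretch cannot be told apart.

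The CArG box was looked for in RefSeq promoters (GRCh38.p14, 250 bases before to 50 bases after a gene's start), which were given for 40 of the 47 genes. ACTB, PARVA, TAGLN, MYL9, TEAD1, TEAD4 and CYR61 had no entry. The motif reads the same pattern on both strands, so 1 search covers both. It was present in 5 of the 40 promoters (12.5%), those of SRF, ACTG1, CNN2, FLNA and TPM4, and in 351 of all 27305 promoters of that length (1.29%). SRF held the motif at 2 places, with first bases at -30 and -10 relative to the start, while ACTG1 and FLNA held it at -94, CNN2 at -89 and TPM4 at -173. Only 1 start was searched for each gene, so a gene without a match may hold the motif at another start or farther away. A match is a run of letters and was not tested for binding. The 4 sequences below show where the motif lies in SRF and in an actin, a calponin and a filamin gene, each on the gene's own strand with the motif in capitals.
SRF: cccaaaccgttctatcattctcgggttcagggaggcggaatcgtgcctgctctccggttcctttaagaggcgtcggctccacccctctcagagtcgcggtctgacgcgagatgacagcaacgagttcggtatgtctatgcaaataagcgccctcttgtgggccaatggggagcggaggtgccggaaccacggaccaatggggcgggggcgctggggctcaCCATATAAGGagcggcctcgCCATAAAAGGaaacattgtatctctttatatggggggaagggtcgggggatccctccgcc
ACTG1: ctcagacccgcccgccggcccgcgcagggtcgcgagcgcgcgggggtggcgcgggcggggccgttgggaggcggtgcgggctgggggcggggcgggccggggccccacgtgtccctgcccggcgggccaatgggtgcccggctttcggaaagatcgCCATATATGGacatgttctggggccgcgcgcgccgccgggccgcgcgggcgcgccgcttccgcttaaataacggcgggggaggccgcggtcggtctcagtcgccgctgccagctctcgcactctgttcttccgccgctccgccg
CNN2: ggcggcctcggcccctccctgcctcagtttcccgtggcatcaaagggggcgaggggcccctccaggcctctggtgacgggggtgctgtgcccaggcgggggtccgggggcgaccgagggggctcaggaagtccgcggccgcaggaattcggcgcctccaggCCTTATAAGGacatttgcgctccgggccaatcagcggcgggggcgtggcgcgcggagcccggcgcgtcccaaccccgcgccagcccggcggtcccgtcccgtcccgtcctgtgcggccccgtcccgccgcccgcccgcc
FLNA: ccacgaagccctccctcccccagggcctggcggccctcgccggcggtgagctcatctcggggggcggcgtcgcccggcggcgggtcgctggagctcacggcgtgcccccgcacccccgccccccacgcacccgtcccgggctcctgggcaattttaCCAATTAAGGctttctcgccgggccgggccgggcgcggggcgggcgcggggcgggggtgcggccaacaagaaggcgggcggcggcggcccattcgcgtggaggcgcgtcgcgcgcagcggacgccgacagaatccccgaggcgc

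The SRF promoter lies at chr6:43171019-43171318 on the plus strand and the ACTG1 promoter at chr17:81512750-81513049 on the minus strand. The CNN2 promoter lies at chr19:1026358-1026657 on the plus strand and the FLNA promoter at chrX:154374585-154374884 on the minus strand, all in GRCh38.p14. With siEWSR1, SRF, ACTG1 and CNN2 were called higher, while FLNA and TPM4 were not called. With siFLI1 all 5 genes that hold the motif were called higher, at log2 changes between 0.23 for FLNA and 1.22 for CNN2. However, 30 of the 46 tested genes and 35.7% of all tested genes were also called higher with siFLI1. A link of the motif to these changes was not tested.

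ACTG1 and ACTB had the highest FPKM of the 47 genes in every group. ACTG1, cytoplasmic gamma actin (hg19, chromosome 17, 79476997 to 79479892), had 1480 and 1466 FPKM with siEWSR1, 1465 and 1557 with siFLI1, and 1002 and 996 with siNeg. ACTB, cytoplasmic beta actin, had 935 and 903 FPKM with siEWSR1, 1062 and 1079 with siFLI1, and 636 and 694 with siNeg. ACTA2, the alpha actin of smooth muscle and myofibroblasts, had 51.8 and 52.1 FPKM with siEWSR1, 70.2 and 74.8 with siFLI1, and 36.6 and 39.6 with siNeg. In all 3 genes the libraries of either siRNA lay above both siNeg libraries. With siEWSR1 the log2 changes were 0.56 for ACTG1, 0.47 for ACTB and 0.44 for ACTA2 (adjusted p = 0.00025, 0.000812 and 0.000957), and with siFLI1 they were 0.60, 0.69 and 0.92 in that order (adjusted p = 0.00017, 0.000144 and 4.24e-05). ACTA2 made up 2.10% and 2.15% of the summed actin FPKM with siEWSR1, 2.70% and 2.76% with siFLI1, and 2.19% and 2.29% with siNeg. Its share was thus lowest with siEWSR1 and highest with siFLI1. Actin coding sequences are nearly identical and ACTA2 overlaps FAS and ACTA2-AS1, so the split of reads among them is uncertain.

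Among 12 cross-linkers and adhesion scaffolds, 5 were called higher (41.7%) and 2 lower (16.7%) with siEWSR1, against 33.2% and 31.0% of all tested genes. With siFLI1, 7 were called higher (58.3%) and 2 lower (16.7%), against 35.7% and 29.6%. VCL, vinculin, which links adhesion complexes to filaments (chromosome 10, 75757872 to 75879914), had 93.8 and 100.3 FPKM with siEWSR1, 109 and 122 with siFLI1, and 52.5 and 51.4 with siNeg. ZYX, zyxin, a LIM protein of adhesions and stress fibres (chromosome 7, 143078360 to 143088206), had 96.3 and 95.5 FPKM with siEWSR1, 99.9 and 105 with siFLI1, and 47.0 and 50.0 with siNeg. Neither gene had any overlap between a knockdown group and siNeg. VCL rose by a log2 of 0.89 ± 0.07 with siEWSR1 (adjusted p = 8.91e-05) and 1.15 ± 0.07 with siFLI1 (2.89e-05), and ZYX by 0.98 ± 0.06 (2.96e-05) and 1.07 ± 0.06 (1.75e-05). ZYX overlaps EPHA1, which stood between 0.185 and 0.341 FPKM in the 6 libraries.

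Within adhesion scaffolds, related genes moved in opposite directions. PXN, paxillin, a scaffold of young and mature adhesions, had 54.3 and 45.7 FPKM with siEWSR1, 54.7 and 49.1 with siFLI1, and 78.5 and 80.1 with siNeg. TGFB1I1, its relative Hic-5, had 4.89 and 4.67 FPKM with siEWSR1, 5.96 and 5.24 with siFLI1, and 2.72 and 2.73 with siNeg. The knockdown libraries were thus all lower for PXN and all higher for TGFB1I1. PXN fell by 0.66 ± 0.09 on the log2 scale with siEWSR1 (adjusted p = 0.00103) and by 0.61 ± 0.09 with siFLI1 (0.00145), and TGFB1I1 rose by 0.71 ± 0.08 (0.000424) and 0.92 ± 0.08 (0.000131). The share of TGFB1I1 in their sum was 8.26% and 9.27% with siEWSR1, 9.82% and 9.64% with siFLI1, and 3.35% and 3.29% with siNeg. PXN overlaps its antisense gene PXN-AS1, which stood at 6.08 to 7.25 FPKM in the knockdown libraries and at 8.06 and 10.0 with siNeg.

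ILK, a pseudokinase that binds integrin tails, and PARVA, the parvin that binds ILK, form 1 complex. ILK had 48.3 and 45.7 FPKM with siEWSR1, 52.8 and 51.0 with siFLI1, and 73.9 and 71.1 with siNeg. PARVA had 11.8 and 13.1 FPKM with siEWSR1, 12.1 and 13.5 with siFLI1, and 6.98 and 6.60 with siNeg. ILK was lower and PARVA higher in every knockdown library than in either siNeg library. Log2 changes of ILK were -0.62 with siEWSR1 and -0.48 with siFLI1 (adjusted p = 0.000152 and 0.000406), and those of PARVA were 0.83 and 0.86 (adjusted p = 0.00023 and 0.000169). ILK overlaps TAF10, at 34.1 to 47.8 FPKM, so part of its reads cannot be told apart from that gene.

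The other scaffolds lay closer to siNeg. ACTN1, alpha-actinin, was called higher with both siRNAs at log2 changes of 0.26 with siEWSR1 (adjusted p = 0.00491) and 0.15 with siFLI1 (0.0358). ACTN4, its relative, was at -0.05 with siEWSR1 (adjusted p = 0.471, and at 0.14 with quantile normalization, called at 0.0436) and rose by 0.23 with siFLI1 (0.014). FLNA, filamin A, was at 0.16 with siEWSR1 (0.105, and at 0.32 with quantile normalization, called at 0.0121) and rose by 0.23 with siFLI1 (0.0371). FLNC, TLN1 and VASP (filamin C, talin and a filament elongation factor) were called with neither siRNA, at log2 changes between 0.01 and 0.20. With quantile normalization and siEWSR1, TLN1 was called at 0.27 (adjusted p = 0.00393) and FLNC at 0.29 (0.0123), and with median centring and siFLI1 they stood at -0.05 and -0.04. Several of these calls lie near the threshold. With siFLI1 the call of ACTN1 was lost without any 1 of its 2 siFLI1 or 2 siNeg libraries (adjusted p = 0.109 to 0.14). With median centring and siFLI1, ACTN1 stood at 0.10 (0.11) and FLNA at 0.17 (0.0657), both not called. The call of FLNA was also lost without siFLI1 replicate 1 (0.0789), siFLI1 replicate 2 (0.174) or siNeg replicate 1 (0.185), and that of ACTN4 without siFLI1 replicate 2 (0.0869) or siNeg replicate 1 (0.0821). FLNA was called with siEWSR1 when siEWSR1 replicate 2 was left out (0.25, adjusted p = 0.0297), as were FLNC (0.31, 0.00972) and VASP (0.23, 0.0366).

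In the calponin family, TAGLN and TAGLN2, which encode the actin-binding transgelins, moved in opposite directions. TAGLN, a marker of smooth muscle and a known SRF target (chromosome 11, 117070040 to 117075508), had 30.4 and 32.7 FPKM with siEWSR1, 37.7 and 40.5 with siFLI1, and 9.18 and 11.1 with siNeg. TAGLN2, the form found in many cell types (chromosome 1, 159887897 to 159895332), had 69.5 and 61.0 FPKM with siEWSR1, 99.3 and 94.1 with siFLI1, and 131.5 and 128.6 with siNeg. TAGLN was higher and TAGLN2 lower in all 4 knockdown libraries. TAGLN rose 3.02-fold with siEWSR1 (log2 change 1.60 ± 0.10, adjusted p = 3.55e-05) and 3.74-fold with siFLI1 (1.90 ± 0.10, 1.61e-05), while TAGLN2 fell by 0.99 ± 0.07 (7.34e-05) and 0.43 ± 0.07 (0.00234) on the log2 scale. TAGLN made up 30.4% and 34.9% of their summed FPKM with siEWSR1, 27.5% and 30.1% with siFLI1, and 6.53% and 7.93% with siNeg. TAGLN overlaps LOC100652768, at 0.793 to 1.25 FPKM in the knockdown libraries and 0.0771 and 0.0534 with siNeg.

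CNN2, a calponin found in many cell types (chromosome 19, 1026274 to 1039067), had 70.7 and 72.3 FPKM with siEWSR1, 106 and 114 with siFLI1, and 43.2 and 50.8 with siNeg. Its groups formed 3 separate levels, the highest with siFLI1. The log2 change was 0.60 ± 0.08 with siEWSR1 (adjusted p = 0.001) and 1.22 ± 0.08 with siFLI1 (4.97e-05). CNN1, the smooth muscle calponin, was barely present, at 0.778 and 0.791 FPKM with siEWSR1, 1.04 and 1.24 with siFLI1, and 0.381 and 0.396 with siNeg, where the deposited intervals imply as few as 18 fragments. It was called higher with both siRNAs, at 0.53 (adjusted p = 0.00647) and 0.88 (0.000679), but with quantile normalization it stood at -0.23 with siEWSR1 (0.209) and at 0.18 with siFLI1 (0.318). CNN3, another widely expressed calponin, had 50.4 and 54.4 FPKM with siEWSR1, 56.8 and 58.6 with siFLI1, and 54.5 and 53.9 with siNeg, and was not called with either, though with quantile normalization it was called with siFLI1 at 0.19 (0.0402).

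TPM1 changed more than any other of the 46 genes with each siRNA. It encodes a tropomyosin, a coiled coil that lies along the actin filament and governs which motors and binding proteins reach it (chromosome 15, 63334838 to 63364113). TPM1 had 56.3 and 59.3 FPKM with siEWSR1, 94.9 and 95.4 with siFLI1, and 12.9 and 13.3 with siNeg. The 3 groups were far apart, with differences within a group of at most a few FPKM. The rise was 4.30-fold with siEWSR1 (log2 change 2.10 ± 0.05, adjusted p = 2.53e-06) and 7.05-fold with siFLI1 (2.82 ± 0.05, 9e-07).

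The other tropomyosins changed much less. TPM2, the most abundant tropomyosin in every library, had 237 and 227 FPKM with siEWSR1, 252 and 256 with siFLI1, and 205 and 200.4 with siNeg. TPM4, a tropomyosin of non-muscle cells, had 106 in both siEWSR1 libraries, 115 and 121 with siFLI1, and 99.2 and 94.0 with siNeg. For both genes the order of the groups was that of TPM1, with siFLI1 highest and siNeg lowest. TPM2 was called higher with siEWSR1 at a log2 change of 0.19 (adjusted p = 0.0132, and 0.0735 without siNeg replicate 2) and with siFLI1 at 0.33 (0.00138). TPM4 was at 0.13 with siEWSR1 (adjusted p = 0.0696, and at 0.35 with quantile normalization, called at 0.00129) and rose by 0.29 with siFLI1 (0.00343). The weight of TPM1 within the family grew with either siRNA. It made up 14.1% and 15.1% of the summed FPKM of TPM1, TPM2 and TPM4 with siEWSR1, 20.5% and 20.2% with siFLI1, and 4.06% and 4.31% with siNeg. TPM3 stood between 58.9 and 63.4 FPKM in the 6 libraries and was not called, though with quantile normalization it was called higher with siEWSR1 at 0.26 (adjusted p = 0.00596) and with siFLI1 at 0.16 (0.0382). Its value of 63.4 in siFLI1 replicate 2 carried a failed status in the deposited file. CALD1, caldesmon, a tropomyosin-associated inhibitor of myosin, rose by 0.32 with siFLI1 (adjusted p = 0.00811) and was at 0.19 with siEWSR1 (0.0543), a value that passed the threshold without siFLI1 replicate 1 (0.0337) or 2 (0.0335). With quantile normalization CALD1 was called with siEWSR1 at 0.37 (0.00377).

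**Figure D2:**
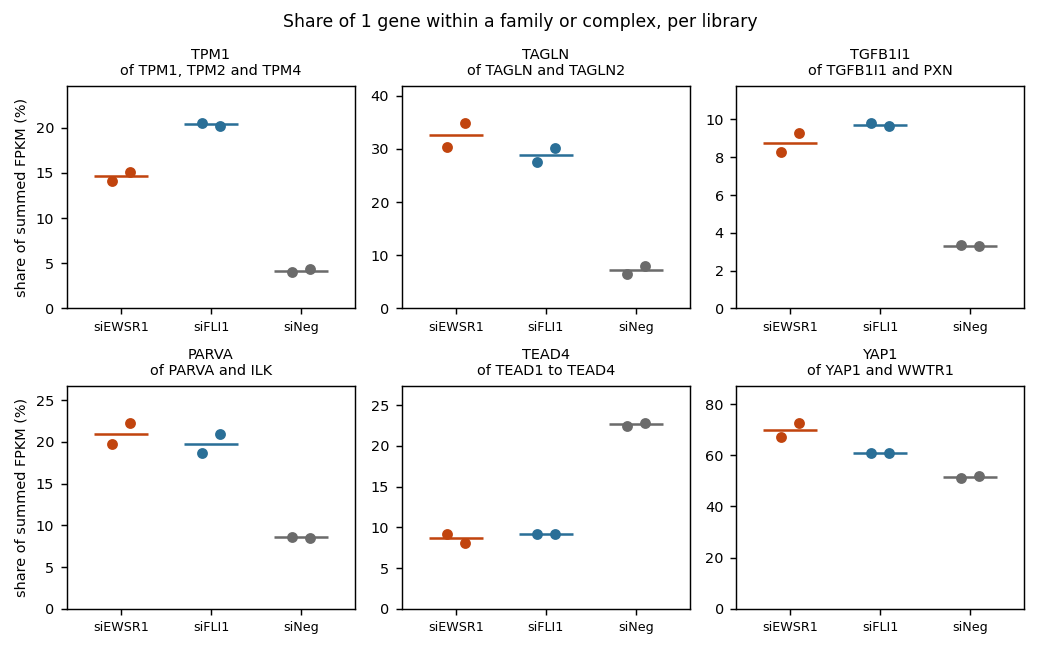
Share (%) of 1 gene in the summed FPKM of a family or complex, with a point for each library and a line for the mean of the 2 libraries with siEWSR1, siFLI1 and siNeg. TPM1, TAGLN, TGFB1I1 and PARVA took larger shares in all 4 knockdown libraries than in either siNeg library, and TEAD4 a smaller one (8.11% to 9.23% against 22.5% and 22.8%).

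Shares within a family are ratios inside a library, so multiplying all FPKM of a library by the same factor leaves them unchanged. Quantile normalization is not such a scaling and can change them. The shares were computed on the deposited FPKM only, so their dependence on quantile normalization was not tested. These shares show unequal change within the family and not which gene moved.

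Of the myosin II genes, MYL6, an essential light chain, had 670 and 640 FPKM with siEWSR1, 881 and 931 with siFLI1, and 600.1 and 590.3 with siNeg. Its siFLI1 libraries stood apart from the other 4, with a log2 change of 0.61 ± 0.06 (adjusted p = 0.00016), against 0.14 ± 0.06 with siEWSR1 (0.0691). Both siEWSR1 libraries also lay above both siNeg libraries, and with quantile normalization MYL6 was called with siEWSR1 at 0.24 (0.0124). MYH9, a heavy chain of non-muscle myosin, had 59.9 and 55.5 FPKM with siEWSR1, 60.9 and 62.7 with siFLI1, and 52.0 and 53.2 with siNeg. MYH10, another such heavy chain, had 27.2 and 25.0 FPKM with siEWSR1, 24.3 and 24.8 with siFLI1, and 29.8 and 31.7 with siNeg. MYH10 was lower in all knockdown libraries, at log2 changes of -0.23 with siEWSR1 (adjusted p = 0.0174) and -0.32 with siFLI1 (0.00471), and MYH9 was at 0.13 (0.0804) and 0.23 (0.0112). In all 4 knockdown libraries MYH9 lay above and MYH10 below both siNeg libraries, and the MYH9 call with siEWSR1 depended on the scaling, at 0.31 with quantile normalization (adjusted p = 0.00171, called). The siEWSR1 call of MYH10 was lost with quantile normalization (-0.13, adjusted p = 0.0804) and without siEWSR1 replicate 2 (adjusted p = 0.0703) or siNeg replicate 2 (0.106). The siFLI1 call of MYH9 was lost without siFLI1 replicate 2 (0.067) or siNeg replicate 1 (0.0669), and MYH9 was called with siEWSR1 without siEWSR1 replicate 2 (0.19, adjusted p = 0.0351).

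Among the LIM domain adaptors, PDLIM7, which tethers proteins to actin filaments (chromosome 5, 176910395 to 176924606), had 37.1 and 33.4 FPKM with siEWSR1, 40.3 and 42.4 with siFLI1, and 18.7 and 21.3 with siNeg. No knockdown library came near the siNeg level. PDLIM7 rose by 0.81 ± 0.08 on the log2 scale with siEWSR1 (adjusted p = 0.000299) and 1.03 ± 0.08 with siFLI1 (9.52e-05). Its relative PDLIM5 went the other way, with 23.7 and 26.1 FPKM with siEWSR1, 20.2 and 22.2 with siFLI1, and 28.0 in both siNeg libraries. The log2 change of PDLIM5 was -0.17 with siEWSR1 (adjusted p = 0.0842, and 0.0407 without siEWSR1 replicate 2) and -0.39 with siFLI1 (0.00333). PDLIM1, at 0.897 to 1.29 FPKM, and LIMA1, an actin bundler at 60.1 to 72.0 FPKM, were called with neither. With quantile normalization and siFLI1, LIMA1 was called higher at 0.23 (adjusted p = 0.0131) and PDLIM1 lower at -0.36 (0.0271).

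**Figure D3:**
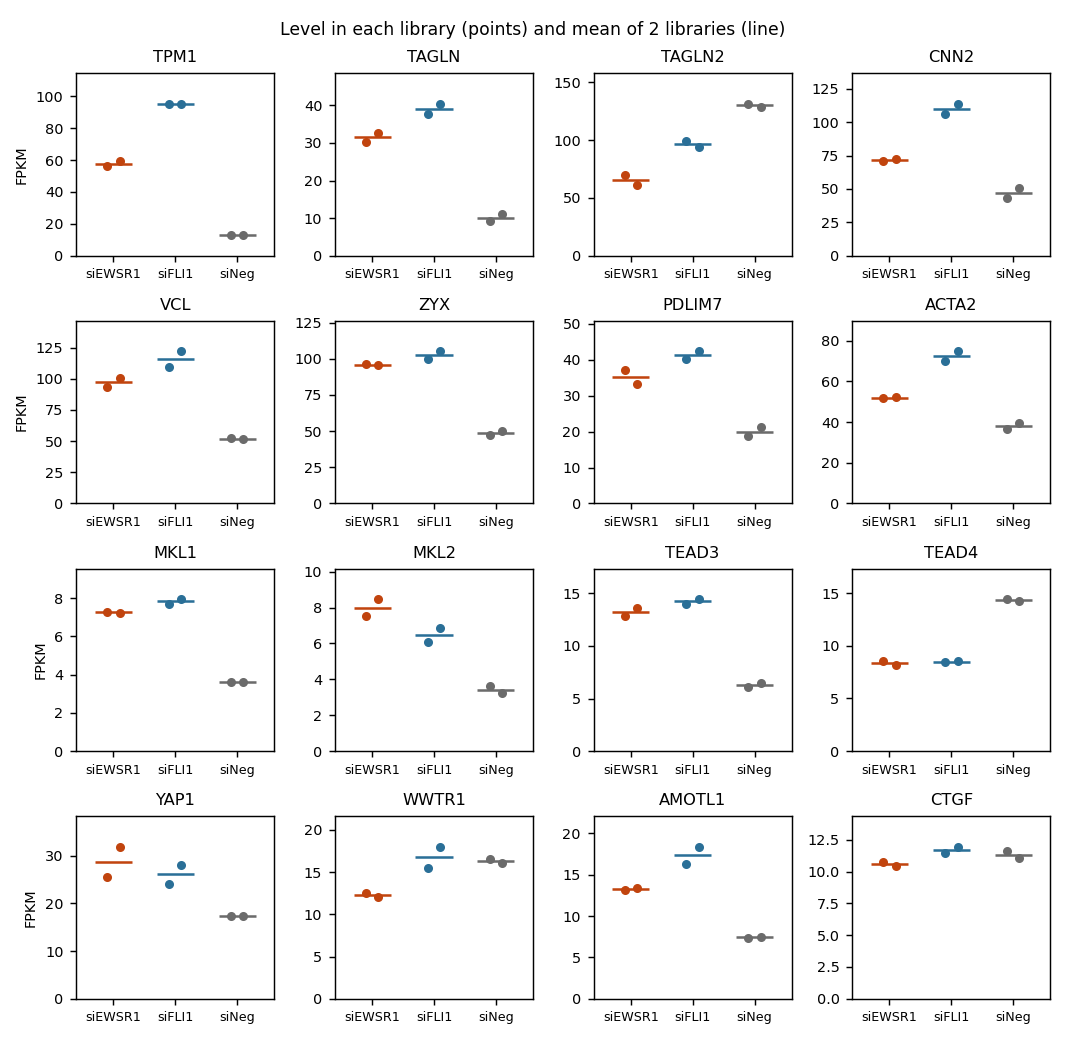
FPKM in each library for 16 of the genes, with points for the 2 libraries of siEWSR1, siFLI1 and siNeg and a line for their mean, each axis starting at 0. TPM1 shows 3 separate levels, TAGLN2 and TEAD4 are highest with siNeg, and the 3 groups of CTGF lie within 10.5 to 12.0 FPKM.

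In the YAP and TEAD group, 4 of 6 genes were called higher with each siRNA, against 33.2% of all tested genes with siEWSR1 and 35.7% with siFLI1. YAP1, the coactivator (chromosome 11, 101981192 to 102104154), had 25.6 and 31.9 FPKM with siEWSR1, 24.2 and 28.2 with siFLI1, and 17.3 in both siNeg libraries. WWTR1, the gene for TAZ (chromosome 3, 149235022 to 149421060), had 12.6 and 12.1 FPKM with siEWSR1, 15.5 and 18.0 with siFLI1, and 16.5 and 16.1 with siNeg. YAP1 was higher in all knockdown libraries. For WWTR1 both siEWSR1 libraries lay below siNeg, while the siFLI1 libraries lay on either side of it. YAP1 rose by 0.71 ± 0.12 on the log2 scale with siEWSR1 (adjusted p = 0.00217) and 0.58 ± 0.12 with siFLI1 (0.0051). WWTR1 fell by 0.39 ± 0.08 with siEWSR1 (adjusted p = 0.00554), and its change with siFLI1 was 0.04 ± 0.08 (0.708), a value that turned to -0.02 with median centring. YAP1 made up 67.0% and 72.6% of the sum of both with siEWSR1, 60.9% and 61.0% with siFLI1, and 51.2% and 51.9% with siNeg.

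The TEAD genes encode the DNA-binding partners of YAP1 and TAZ. TEAD1 (chromosome 11, 12695969 to 12966284) had 26.5 and 31.6 FPKM with siEWSR1, 24.4 and 26.1 with siFLI1, and 18.1 and 16.8 with siNeg. TEAD2 (chromosome 19, 49843853 to 49865714) had 44.7 and 47.2 FPKM with siEWSR1, 45.4 and 43.9 with siFLI1, and 25.6 and 25.0 with siNeg. TEAD3 (chromosome 6, 35441374 to 35464861) had 12.8 and 13.6 FPKM with siEWSR1, 14.0 and 14.5 with siFLI1, and 6.07 and 6.47 with siNeg. These 3 genes were higher in every knockdown library than in either siNeg library. TEAD4 (chromosome 12, 3068478 to 3149842), with 8.55 and 8.16 FPKM with siEWSR1, 8.46 and 8.54 with siFLI1, and 14.4 and 14.2 with siNeg, was lower in every one.

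Log2 changes with siEWSR1 were 0.72 ± 0.09 for TEAD1, 0.85 ± 0.05 for TEAD2, 1.02 ± 0.06 for TEAD3 and -0.74 ± 0.06 for TEAD4 (adjusted p = 0.000782, 4.42e-05, 4.26e-05 and 8.57e-05). With siFLI1 they were 0.52 ± 0.09, 0.81 ± 0.05, 1.12 ± 0.06 and -0.72 ± 0.06 in the same order (adjusted p = 0.00301, 4.32e-05, 2.36e-05 and 8.48e-05). TEAD4 made up 9.23% and 8.11% of the summed TEAD FPKM with siEWSR1, 9.16% and 9.18% with siFLI1, and 22.5% and 22.8% with siNeg. TEAD2 overlaps CD37, which had 3.63 and 3.73 FPKM with siEWSR1, 2.51 and 2.25 with siFLI1, and 0.664 and 0.976 with siNeg, and reads of the shared stretch cannot be told apart.

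The YAP target genes did not move as a group. With siEWSR1, 2 of 5 were called higher (40%) and 1 lower (20%), against 33.2% and 31.0% of all tested genes. With siFLI1, 3 were called higher (60%) and 1 lower (20%), against 35.7% and 29.6%. AMOTL1, an angiomotin family protein that binds YAP at junctions and on actin (chromosome 11, 94501508 to 94609918), had 13.2 and 13.4 FPKM with siEWSR1, 16.3 and 18.4 with siFLI1, and 7.37 and 7.50 with siNeg. Its 3 groups did not overlap, and it rose by 0.80 ± 0.07 on the log2 scale with siEWSR1 (adjusted p = 0.000165) and 1.17 ± 0.07 with siFLI1 (3.19e-05). AMOTL2, its relative, had 4.50 and 3.82 FPKM with siEWSR1, 6.46 and 6.90 with siFLI1, and 4.40 and 4.69 with siNeg. Only the siFLI1 libraries of AMOTL2 stood above siNeg, at a log2 change of 0.51 ± 0.09 (adjusted p = 0.00298), against -0.12 ± 0.09 with siEWSR1 (0.293).

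CYR61, CTGF and ANKRD1 are widely used as readouts of YAP activity. CYR61, a secreted matricellular protein, had 16.4 and 13.2 FPKM with siEWSR1, 18.4 and 18.1 with siFLI1, and 9.52 and 8.41 with siNeg. CTGF, its relative, had 10.8 and 10.5 FPKM with siEWSR1, 11.5 and 12.0 with siFLI1, and 11.6 and 11.1 with siNeg. ANKRD1, an ankyrin repeat protein of muscle and stretched cells, had 1.66 and 1.64 FPKM with siEWSR1, 1.97 and 1.75 with siFLI1, and 2.55 and 2.22 with siNeg. The knockdown libraries were all higher than siNeg for CYR61 and all lower for ANKRD1. For CTGF the siEWSR1 libraries lay just below siNeg and the siFLI1 libraries overlapped it. CYR61 rose by 0.68 ± 0.11 on the log2 scale with siEWSR1 (adjusted p = 0.00193) and 0.99 ± 0.11 with siFLI1 (0.000362). The ANKRD1 change was in the other direction and less firm. ANKRD1 fell by 0.42 ± 0.10 with siEWSR1 (adjusted p = 0.00965, and 0.0653 without siNeg replicate 1) and by 0.29 ± 0.10 with siFLI1 (0.0389). The siFLI1 call of ANKRD1 was lost without siFLI1 replicate 1 (0.054), siFLI1 replicate 2 (0.172) or siNeg replicate 1 (0.2). CTGF was at -0.09 ± 0.06 with siEWSR1 (adjusted p = 0.212) and 0.05 ± 0.06 with siFLI1 (0.504), a value that turned to -0.01 with median centring.

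TEAD factors are known to bind GGAATG and related letters. On either strand this motif was present in 8 of the 40 promoters (20%), those of CTGF, ANKRD1, YAP1, VCL, CALD1, MYH9, MYH10 and FLNC, and in 3836 of all 27305 promoters (14%). CTGF (CCN2 in RefSeq) held it at 3 places, with first bases at -169, -104 and -95, and ANKRD1 at 2, at -220 and -128. No match overlapped a CArG box. These promoters are printed because their genes carried the most matches and were not called higher with either siRNA, with GGAATG in capitals and the gene's own strand shown.
CTGF: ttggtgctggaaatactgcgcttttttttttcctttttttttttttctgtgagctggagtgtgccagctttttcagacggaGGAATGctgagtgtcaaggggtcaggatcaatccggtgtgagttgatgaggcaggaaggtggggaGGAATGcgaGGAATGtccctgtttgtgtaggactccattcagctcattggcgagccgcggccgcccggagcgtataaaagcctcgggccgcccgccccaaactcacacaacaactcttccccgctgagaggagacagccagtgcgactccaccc
ANKRD1: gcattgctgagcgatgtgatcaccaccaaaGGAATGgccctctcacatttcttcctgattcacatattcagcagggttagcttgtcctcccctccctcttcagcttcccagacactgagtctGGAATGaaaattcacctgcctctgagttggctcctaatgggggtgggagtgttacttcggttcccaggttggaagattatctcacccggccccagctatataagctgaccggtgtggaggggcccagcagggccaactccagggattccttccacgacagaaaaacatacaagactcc

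The CTGF promoter lies at chr6:131951323-131951622 and that of ANKRD1 at chr10:90921038-90921337, both on the minus strand of GRCh38.p14. Among the 8 genes with the motif, VCL and YAP1 were called higher with each siRNA, and ANKRD1 and MYH10 lower. CALD1 and MYH9 were called higher with siFLI1 only, under the scaling as deposited, and CTGF and FLNC with neither siRNA. A link of the motif to these changes was not tested.

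Set directly against siFLI1, siEWSR1 left 8 of the 46 genes lower and 0 higher, where 3.07% of all tested genes were called lower and 0.790% higher (limma). None differed by at least 2-fold, which 0.0460% of all tested genes did as higher and 0.199% as lower. At an unadjusted p under 0.05, 21 of the 46 were lower and 2 higher, against 13 and 7 with quantile normalization and 16 and 5 with median centring. The median log2 difference, siEWSR1 minus siFLI1, was -0.13 for the 46 genes and -0.03 over all tested genes. The largest differences were those of TPM1 (-0.71 ± 0.05, adjusted p = 0.00442), AMOTL2 (-0.63 ± 0.09, 0.0258), CNN2 (-0.62 ± 0.08, 0.023) and TAGLN2 (-0.57 ± 0.07, 0.0191). ACTA2 (-0.48 ± 0.06, 0.0191), MYL6 (-0.47 ± 0.06, 0.017), WWTR1 (-0.43 ± 0.08, 0.044) and AMOTL1 (-0.37 ± 0.07, 0.0482) were called as well. AMOTL1 was not called with quantile normalization (0.0507) or median centring (0.0516). WWTR1 and AMOTL1 were not called with no variance trend (0.056 and 0.0594) or with the replicate number as a block (0.0658 and 0.0609). With no filter on low values TPM1 alone of the 46 was called. Per library, 8 genes did not overlap and were higher with siEWSR1 and 27 were lower, where 20.1% and 32.9% of all tested genes did not overlap in those directions. The gene farthest in the other direction was MKL2, at 0.29 ± 0.10 (adjusted p = 0.141).

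These direct calls rest on few libraries. Among the 46, limma called 0 without siFLI1 replicate 1 and 0 without siFLI1 replicate 2, where an unadjusted p under 0.05 was reached by 16 and 12 genes. It called 2 without siEWSR1 replicate 2, 3 without siNeg replicate 1, 2 without siNeg replicate 2 and 7 without siEWSR1 replicate 1. The log2 difference of TPM1 was -0.72 without siFLI1 replicate 1 (adjusted p = 0.0633) and -0.71 without siFLI1 replicate 2 (0.0764). Where a group is left with 1 library, that library is assumed to vary like those of the other groups. Of the 7 genes called higher with siFLI1 and not with siEWSR1 under the scaling as deposited, AMOTL2 and MYL6 also differed between the siRNAs, whereas ACTN4 (adjusted p = 0.0556), FLNA (0.658), TPM4 (0.148), CALD1 (0.346) and MYH9 (0.347) were not called.

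**Figure D4:**
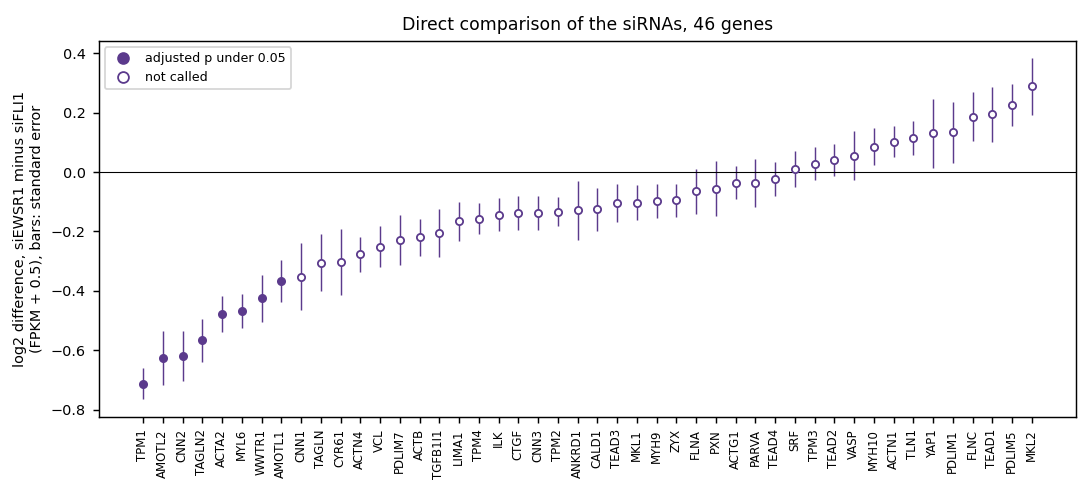
Log2 difference, siEWSR1 minus siFLI1, on log2(FPKM + 0.5) for the 46 tested genes in rising order, with bars for the standard error and filled points for genes called at an adjusted p under 0.05. The 8 called genes lie at the left end between -0.71 and -0.37, and MKL2 at the right end at 0.29.

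Other genes of these pathways were taken from lists drawn up alongside the 47. Beside their counts stand the shares of all tested genes, 33.2% higher and 31.0% lower with siEWSR1, and 35.7% and 29.6% with siFLI1. Of 17 tested further targets of the MRTF proteins and SRF, 12 were called higher and 2 lower with each siRNA. MYLK, the kinase that activates smooth muscle and non-muscle myosin, had 12.0 and 15.9 FPKM with siEWSR1, 16.5 and 19.9 with siFLI1, and 1.32 and 1.36 with siNeg, a 7.78-fold rise with siEWSR1 and 10.1-fold with siFLI1, and it overlaps MYLK-AS1 and MYLK-AS2. DES, the intermediate filament desmin, rose 8.35-fold with siEWSR1 and 9.40-fold with siFLI1, and LMOD1, a filament nucleator of smooth muscle, 5.61-fold and 5.42-fold (adjusted p at most 1.81e-05 for each of the 3 genes). The immediate early genes that SRF drives through ternary complex factors were more mixed, with 2 of 6 called higher and 1 lower with siEWSR1, and 3 higher and 1 lower with siFLI1. JUNB, an AP-1 subunit, had 24.7 and 18.5 FPKM with siEWSR1, 32.0 and 32.4 with siFLI1, and 4.58 and 3.54 with siNeg. FOS, another such subunit, had 32.0 and 27.5 FPKM with siEWSR1, 31.3 and 28.4 with siFLI1, and 51.5 and 48.6 with siNeg. JUNB was higher and FOS lower in every knockdown library.

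Of 15 further YAP and TAZ targets, 9 were called higher (60%) and 4 lower (26.7%) with each siRNA. All tested genes had 33.2% and 31.0% with siEWSR1, and 35.7% and 29.6% with siFLI1. CCDC80, a secreted matrix protein, had 15.0 and 17.9 FPKM with siEWSR1, 16.9 and 18.4 with siFLI1, and 0.892 and 0.830 with siNeg. TGFB2, a TGF-beta ligand, had 11.1 and 14.8 FPKM with siEWSR1, 10.4 and 11.9 with siFLI1, and 0.525 and 0.607 with siNeg. Both lay far above siNeg in every knockdown library, though TGFB2 overlaps its antisense gene TGFB2-AS1. IGFBP3, also on this list, is a known gene that the fusion represses, and it rose 238-fold with siEWSR1 and 199-fold with siFLI1. The median log2 change of the 15 was 0.70 with siEWSR1 and 0.61 with siFLI1.

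The upstream kinases and regulators went in both directions, as all tested genes did. Of 17 tested Hippo kinases and YAP regulators, 5 were called higher (29.4%) and 4 lower (23.5%) with siEWSR1. All tested genes had 33.2% and 31.0%. With siFLI1, 6 were called higher and 6 lower (35.3% each), against 35.7% and 29.6%. WWC2, which helps activate the Hippo kinases, had 5.65 and 5.35 FPKM with siEWSR1, 3.49 and 3.12 with siFLI1, and 10.1 and 9.33 with siNeg, so that it was lower in every knockdown library. WWC2 overlaps WWC2-AS1 and CLDN22, and VGLL4 overlaps ATG7. VGLL4, which competes with YAP for TEAD, rose by 0.39 on the log2 scale with siEWSR1 (adjusted p = 0.00187) and 0.81 with siFLI1 (7.59e-05), and the kinase MAP4K4 by 0.69 (0.000268) and 0.50 (0.000969).

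Genes of actin assembly and turnover also went in both directions. With siEWSR1, 6 of 30 were called higher (20%) and 9 lower (30%), against 33.2% and 31.0% of all tested genes. With siFLI1, 9 were called higher (30%) and 8 lower (26.7%), against 35.7% and 29.6%. The actin-sequestering thymosin TMSB4X had 162 and 169 FPKM with siEWSR1, 206 and 207 with siFLI1, and 91.4 and 92.6 with siNeg. GSN, gelsolin, which severs filaments, rose 1.76-fold with siEWSR1 and 2.07-fold with siFLI1.

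Focal adhesion genes beyond the 47 were called higher in 14 (66.7%) and lower in 5 (23.8%) of 21 with siEWSR1, against 33.2% and 31.0% of all tested genes. With siFLI1, 13 were called higher (61.9%) and 5 lower (23.8%), against 35.7% and 29.6%. TNS3, a tensin that links integrins to actin, had 10.4 and 11.1 FPKM with siEWSR1, 16.6 and 17.5 with siFLI1, and 1.73 and 2.11 with siNeg. PDLIM3, a LIM protein of muscle, rose 4.06-fold with siEWSR1 and 4.28-fold with siFLI1, and LIMS2, a partner of ILK, 3.18-fold and 4.05-fold. The median log2 change over the 21 genes was 0.45 with siEWSR1 and 0.48 with siFLI1.

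**Figure D5:**
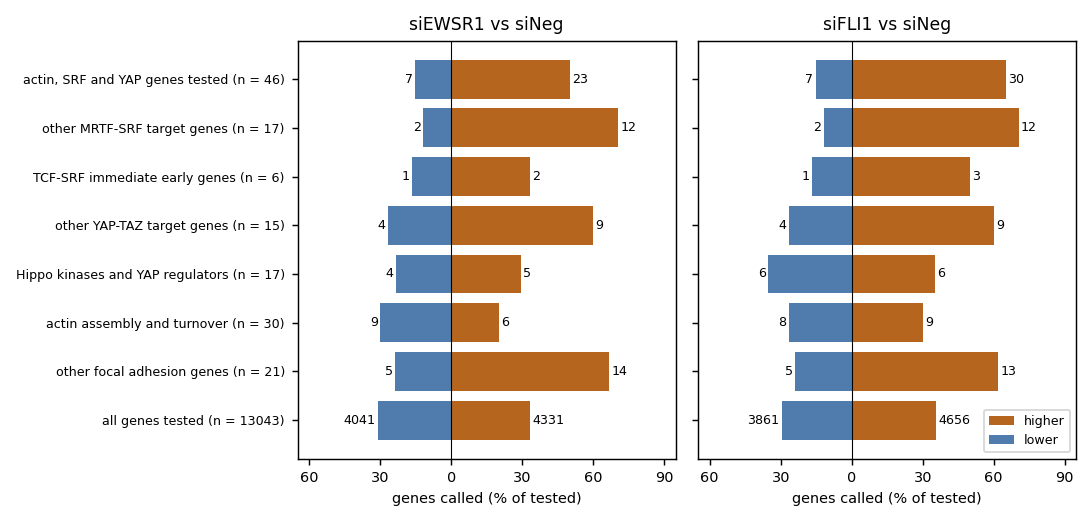
Share (%) of tested genes called higher (brown, to the right) and lower (blue, to the left) with siEWSR1 and with siFLI1 against siNeg, for the 46 tested genes of the 47, 6 further lists and all 13043 tested genes, with the number of genes beside each bar. The further MRTF and SRF targets have the longest bars to the right, at 70.6% with each siRNA, against 33.2% and 35.7% of all tested genes.

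Genes at 1 FPKM or above numbered 12669 and 12611 with siEWSR1, 12741 and 12700 with siFLI1, and 12079 and 12133 with siNeg. Every knockdown library thus had more such genes than either siNeg library. Fragment numbers implied by the deposited intervals added up to between 15159073 and 16298374 a library, but they are not read counts. In siEWSR1 replicate 1, ACTG1 at 1480 FPKM had an implied number of 2316, and ACTB at 935 FPKM had 56770. Depth is thus not known from them. Each targeted gene was reduced by a modest amount with the siRNA against it. EWSR1 had 34.6 and 32.3 FPKM with siEWSR1, 51.2 and 50.2 with siFLI1, and 46.5 and 47.2 with siNeg, a log2 change of -0.48 with siEWSR1 (adjusted p = 0.000444). FLI1 had 10.4 and 10.6 FPKM with siEWSR1, 8.98 and 8.56 with siFLI1, and 10.9 in both siNeg libraries, a log2 change of -0.29 with siFLI1 (adjusted p = 0.00423). With the other siRNA neither was called, FLI1 at -0.04 with siEWSR1 (limma adjusted p = 0.534) and EWSR1 at 0.11 with siFLI1 (0.11). With quantile normalization EWSR1 was called higher with siFLI1, at 0.20 (0.0107). Gene-level values add reads from the fusion to those of the normal genes. The Ewing sarcoma markers were present. CD99, a surface protein used in diagnosis, had 277 and 246 FPKM with siEWSR1, 289 and 272 with siFLI1, and 303 and 308 with siNeg. NR0B1, which the fusion activates, had 78.0 and 47.0 FPKM with siEWSR1, 69.0 and 56.4 with siFLI1, and 204 and 234 with siNeg. Of 9 tested Ewing markers, 9 were called lower with siEWSR1 and 8 with siFLI1, where 31.0% and 29.6% of all tested genes were. The call of CD99 with siEWSR1 (log2 change -0.23, adjusted p = 0.0284) was lost without siEWSR1 replicate 2 (-0.14, 0.101), without siNeg replicate 1 (0.0871) or 2 (0.112), with no filter (0.0661) and with quantile normalization (0.0014, 0.984). With siFLI1 it was called lower with median centring (-0.18, 0.048).

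Those smooth muscle and myofibroblast markers that were tested moved with the actin genes, and their part in these results was not tested. All 4 tested genes of 6 (DES, LMOD1, ACTG2 and CASQ2) were called higher with each siRNA, and DES and LMOD1 are also SRF targets. Among all tested genes, 33.2% were called higher with siEWSR1 and 35.7% with siFLI1. The summed level of all 6 was 19.1 and 20.3 FPKM with siEWSR1, 21.7 and 24.1 with siFLI1, and 3.58 and 4.11 with siNeg, while MYH11, the smooth muscle myosin, stayed at 0.0619 to 0.218 FPKM. Of 6 skeletal and heart muscle markers only TNNT2 was tested and was called higher, MYOD1 and MYOG stood at 0.0211 FPKM or less, and the summed level was 3.91 and 3.87 FPKM with siEWSR1, 5.47 and 6.10 with siFLI1, and 0.358 and 0.410 with siNeg. Summed fibroblast markers were 47.4 and 45.5 FPKM with siEWSR1, 47.4 and 48.6 with siFLI1, and 37.4 and 35.7 with siNeg, with DCN at 0.497 FPKM or less. Of 3 tested fibroblast genes, 2 were called higher and 1 lower with each siRNA. Log2 changes of these 3 ran from -0.46 to 3.55 with siEWSR1 and from -0.56 to 3.63 with siFLI1. The summed markers of other lineages stayed low or did not separate all knockdown libraries from siNeg, though single genes among them did. Summed epithelial markers were 2.66 and 2.52 FPKM with siEWSR1, 3.41 and 3.32 with siFLI1, and 3.86 and 2.68 with siNeg. Of the 2 tested epithelial genes, 1 was called higher and 1 lower with each siRNA. Their log2 changes were 1.37 and -1.97 with siEWSR1, and 1.72 and -1.97 with siFLI1. Summed blood markers were 2.92 and 3.16 FPKM with siEWSR1, 4.40 and 4.11 with siFLI1, and 3.95 and 3.09 with siNeg, with CD3E and HBB at 0 in all 6 libraries. Summed endothelial markers were 23.0 and 17.0 FPKM with siEWSR1, 26.0 and 24.3 with siFLI1, and 24.9 and 26.8 with siNeg. The 1 tested endothelial gene was called lower with siEWSR1, at a log2 change of -0.40, and was not called with siFLI1. In bulk RNA, fewer cells of a type and less RNA per cell cannot be told apart.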

How the data were processed

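RNA of the 6 TC32 libraries was analysed at gene level. The authors deposited FPKM values with the bounds of a 95% interval, and the submitters' processing notes name TopHat2 2.0.13, Cufflinks, Cuffdiff and build hg19. The gene annotation, strand setting, library kit and handling of reads with several map positions were not given in the sources used here, so paralogs and overlapping genes are uncertain. FPKM depends on the other RNAs of a library and gives no counts. Fragment numbers implied by the intervals do not follow FPKM from gene to gene, so depth is not known. Rows were joined by gene and position, rows of 1 symbol were summed, and starts were converted to count from 1.

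Genes that reached 1 FPKM in 2 or more of the 6 libraries were kept, and log2(FPKM + 0.5) was fitted with limma 3.58.1 (R 4.3.3) over all 6, with variances that follow the mean level (3 residual and 3.39 prior degrees of freedom). P-values are two-sided and adjusted by Benjamini-Hochberg over the 13043 genes, with errors of log2 changes as standard errors. On simulated data, in which far fewer genes were changed, the fit missed most changes of 2-fold or less, so a gene that was not called may still differ. The labels do not say whether replicates were separate cultures, so a p-value reflects the spread of these samples alone, and that spread may be technical.

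The genes, the lists and the rules for naming were chosen with earlier results of these data known. Values per library are given for genes called with a log2 change of at least 1, for the regulators and for relatives described beside them. From each further list up to 3 called genes with the largest change, a mean of at least 5 FPKM in the higher group and groups that do not overlap are named, and these were looked up with results known. Promoters are RefSeq sequences of GRCh38.p14, used for motifs and printed with that build's coordinates. Each gene had 1 start, and other starts were not searched. Gene positions are those of the hg19 files. Alternatives were pseudocounts of 0.1 and 1, no filter, a mean FPKM of at least 5, quantile normalization, median centring, no variance trend or a robust one, only the libraries of the compared groups, the replicate number as a block, and each library left out. One further list was left out and is not reported here.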

Additional observations from a re-analysis of the deposited data

How the results depend on the processing

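Against siNeg, the counts of the 46 genes depended on the scaling, most with siEWSR1. As deposited, 30 were called with siEWSR1 (23 higher, 7 lower) and 37 with siFLI1 (30 higher, 7 lower). Median centring gave 30 and 35. Quantile normalization gave 38 (31 higher, 7 lower) and 40 (32 higher, 8 lower), so the siRNAs then differed little in their higher calls. Over all genes, 2518 were higher with siEWSR1 and 2787 with siFLI1 at a mean FPKM of at least 5, where fewer genes were tested, and 3526 to 4163 and 3789 to 4800 without 1 library. Of the single values of the 46 genes, 6 lost the call and 21 gained it in 732 siEWSR1 values, and 23 lost and 5 gained it in 732 siFLI1 values, over all alternatives.

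Some directions reversed, the cause was not tested, and 2 of these values passed the threshold. With quantile normalization and siEWSR1, ACTN4 stood at 0.14 (adjusted p = 0.0436, called), CNN1 at -0.23, CNN3 at 0.13, PDLIM1 at -0.12, LIMA1 at 0.15 and CD99 at 0.0014, and with siFLI1 PDLIM1 stood at -0.36 (adjusted p = 0.0271, called). With median centring and siFLI1, FLNC stood at -0.043, TLN1 at -0.045, TPM3 at -0.0093, WWTR1 at -0.022 and CTGF at -0.011. Without 1 library, values ran from -0.10 to 0.00024 for ACTN4 and -0.10 to 0.0052 for CNN3 with siEWSR1, and from -0.029 to 0.060 for FLNC, -0.037 to 0.063 for TLN1, -0.0026 to 0.10 for TPM3 and -0.069 to 0.14 for WWTR1 with siFLI1.

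The comparison of siEWSR1 with siFLI1 depended most on the setting. Genes called were 504 (103 higher, 401 lower), and 88 (15, 73) with no filter, 825 (185, 640) with a robust trend, 111 (12, 99) with only these 4 libraries, 552 (209, 343) with quantile normalization and 499 (153, 346) with median centring. The share of higher calls was thus 20.4%, against 37.9% with quantile normalization and 30.7% with median centring. Without 1 library, 5 to 593 genes were called (3 to 85 higher, 2 to 508 lower). Of the 46 genes 8 were called, all lower, and 1 with no filter, 3 with only these libraries and 0 to 7 without 1 library. Same-numbered libraries did not deviate together (correlations of 0.07 for siEWSR1 with siFLI1, -0.14 for siEWSR1 with siNeg and -0.05 for siFLI1 with siNeg), and with the replicate number as a block 319 genes (57 higher, 262 lower) and 6 of the 46 were called between the siRNAs, against 31 with siEWSR1 and 35 with siFLI1 relative to siNeg. With the siNeg numbers crossed, an alternative chosen after seeing the data, 33 of the 46 (25 higher, 8 lower) were called with siEWSR1.

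Precision is limited by 2 libraries a group and, for CNN1 and PDLIM1, by implied fragment numbers as low as 18 and 44. The median gene of the 46 had 1492 in its lowest library. Such numbers restate the width of the deposited intervals and are not read counts.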
